A study of Mus musculus with 8 samples.

Results

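Glycolysis, pyruvate oxidation, the tricarboxylic acid cycle and the malate-aspartate shuttle were followed through 47 genes in mouse oocytes with and without BAF250a. The genes were taken as a named list of enzymes and carriers and were matched by symbol to the 54838 gene entries of the count table. They fall into 6 roles: 9 genes of upper glycolysis, 6 of lower glycolysis, 4 of lactate and pyruvate entry, 8 of pyruvate oxidation and carboxylation, 13 of the tricarboxylic acid cycle and 7 of the malate-aspartate shuttle. Of the 47 genes, 46 had enough reads to be tested. The exception was Eno2, the neuronal enolase, with 0 reads in all 8 libraries.

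Fully grown mouse oocytes are known to burn pyruvate rather than glucose, and much of that pyruvate comes from the glycolysis of the surrounding cumulus cells. Pyruvate made in the cytosol or formed from lactate enters mitochondria through the mitochondrial pyruvate carrier, is oxidised by the pyruvate dehydrogenase complex and feeds the tricarboxylic acid cycle. The malate-aspartate shuttle carries the reducing equivalents of cytosolic NADH into mitochondria, which the use of lactate depends on.

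The oocytes came from C57BL/6 mice of the genotypes BAF250aGKO (knockout) and wildtype (control). Per the series title the knockout was made with Gdf9-cre, a recombinase driven by an oocyte promoter, so it acts in oocytes from early follicle growth onward and not in the somatic cells of the ovary. BAF250a, encoded by Arid1a, is a DNA-binding subunit of the BAF chromatin remodelling complex. The groups were knockout and control oocytes at metaphase II (MII), arrested after the first meiotic division, and knockout and control oocytes with an intact germinal vesicle (GV), with 2 libraries in each. Each library was made from 5 to 10 pooled oocytes, while the age of the animals and any hormone treatment were not stated in the labels. The labels do not say that the 2 libraries of a group came from separate animals, so p-values measure the spread between these libraries only.

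Libraries held 19587421 to 33289150 reads in genes. Arid1a had 1109 and 576 reads in knockout MII against 42047 and 39148 in control MII, and 86 and 312 reads in knockout GV against 8178 and 10928 in control GV. All 14 oocyte markers had reads in every library, but Figla had only 3 and 1 in knockout MII against 26 and 8 in control MII. Figla was called lower in knockout MII by edgeR (adjusted p = 0.0482), and no other oocyte marker was called between knockout and control. Mitochondrially encoded genes held 3.03% and 4.41% of gene reads in knockout MII, 6.03% and 6.93% in control MII, 0.249% and 0.379% in knockout GV and 0.446% and 0.105% in control GV. Values below are CPM, read counts set to the depth in tested genes and scaled between libraries by the trimmed mean of M values, and log2 fold changes are given ± SE from edgeR's quasi-likelihood test. They are shares of a library, so fewer cells of a type and less RNA per cell cannot be told apart, and a level set between stages is relative to the other RNA of that stage. The labels give total RNA and do not say how it was selected for the libraries, so a rise or fall between stages is one in the RNA captured, and the part of that selection was not tested.

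Ldhb, the lactate dehydrogenase subunit that favours the conversion of lactate to pyruvate, stood above every other gene of the list in each group. Per kilobase of exon it averaged 1978 CPM per kb over the 8 libraries, followed by Aldoa at 99.2, Pkm at 77.8, Cs at 62.8 and Mdh1 at 44.1 CPM per kb. Ldhb alone made up 66.9% and 49.0% of the summed CPM of the list in knockout MII, 39.6% and 33.7% in control MII, 55.8% and 54.1% in knockout GV and 53.8% and 64.4% in control GV. Its alternative subunit, Ldha, held at most 1.83% of the lactate dehydrogenase CPM per kb in any library. The order beneath Ldhb differed by stage. At GV the next genes were the aldolase Aldoa and the pyruvate kinase Pkm, with 201 and 137 CPM per kb in knockout GV and 173 and 157 CPM per kb in control GV. At MII they were the citrate synthase Cs and the cytosolic malate dehydrogenase Mdh1, with 65.7 and 56.1 CPM per kb in knockout MII and 72.9 and 66.7 CPM per kb in control MII.

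**Figure D1:**
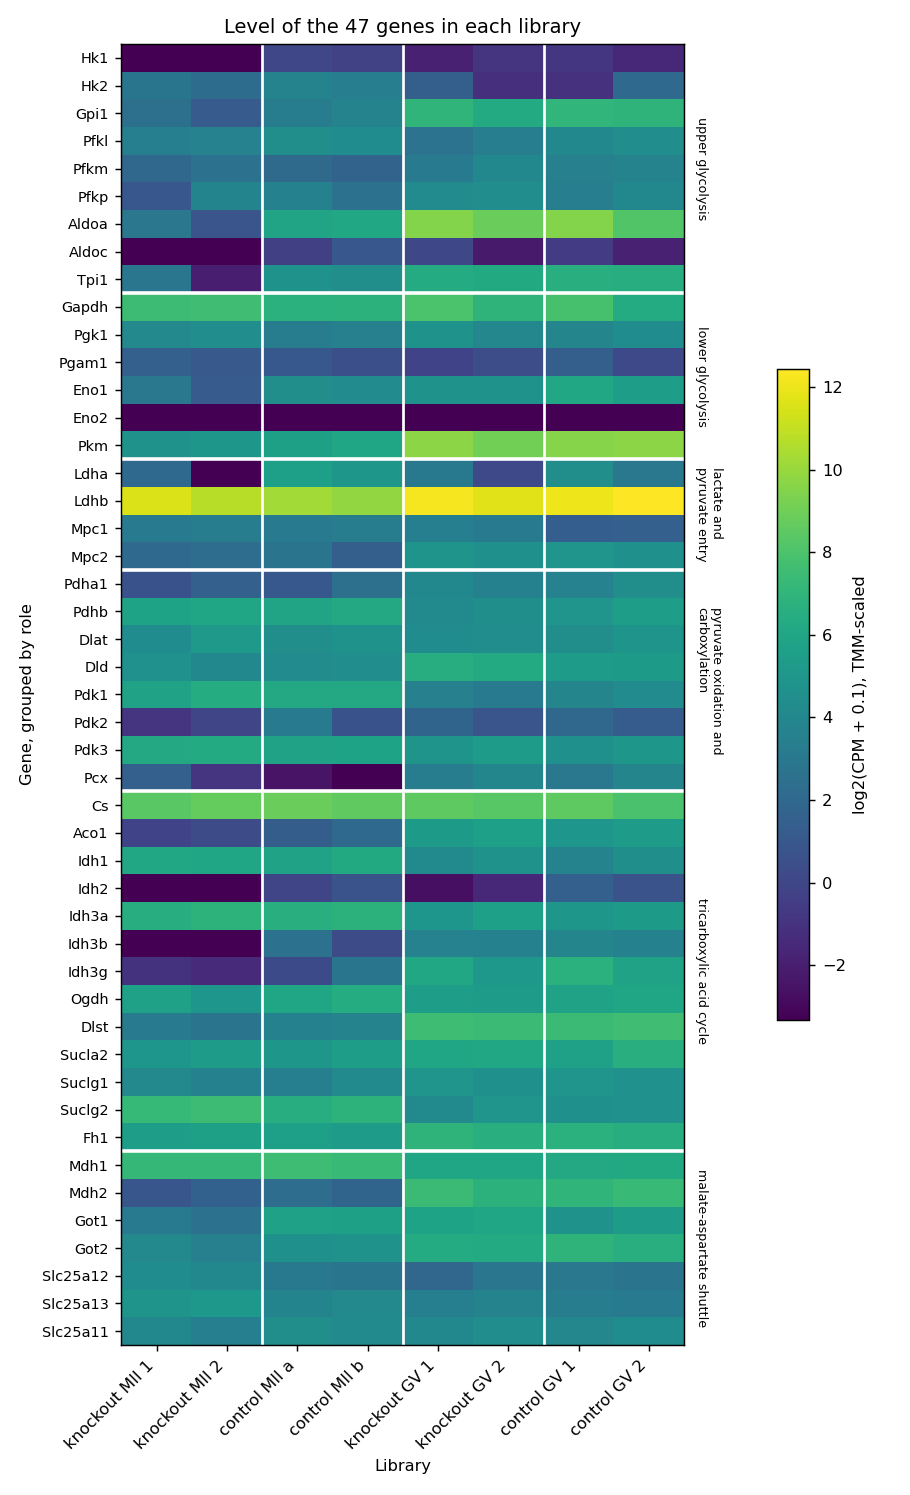
Level of each of the 47 genes (rows, grouped by role) in each of the 8 libraries (columns), as log2 of the scaled CPM plus 0.1. Ldhb is the brightest row in all libraries, and at MII several glycolytic rows (Gpi1, Aldoa, Pkm) and Mdh2 are darker than at GV in both genotypes.

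Summed by role, the glycolytic genes set the stages apart more than the cycle did. Upper glycolysis added up to 10.0 and 6.42 CPM per kb in knockout MII, 39.6 and 39.5 in control MII, 305 and 202 in knockout GV and 307 and 160 in control GV. The 13 cycle genes added up to 168 and 192 CPM per kb in knockout MII, 176 and 192 in control MII, 204 and 181 in knockout GV and 210 and 182 in control GV. The ranges of the cycle overlapped between knockout and control at both stages, whereas upper glycolysis in knockout MII lay below control MII in both libraries. The 7 shuttle genes also lay lower in knockout MII, at 80.4 and 78.9 CPM per kb, than in control MII, at 114 and 100 CPM per kb. These sums are descriptions and were not tested, and they follow their most abundant genes. Aldoa alone held 201 CPM per kb in knockout GV and 173 in control GV. Counted by calls between the stages, the order was the other way. In knockout and control oocytes 69.2% and 53.8% of the tested cycle genes were called, against 55.6% and 33.3% of upper and 40% and 40% of lower glycolysis. Over all tested genes it was 49% and 49.1%.

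The first question of the design is what loss of BAF250a did to these genes at each stage. At MII, 7 of the 46 tested genes differed between knockout and control at an adjusted p below 0.05, 6 lower and 1 higher, where 5.14% of all 15572 tested genes differed (3.44% lower and 1.7% higher). Aldolase (Aldoa), the cytosolic aconitase (Aco1), 2 of the 3 subunit genes of the NAD-dependent isocitrate dehydrogenase (Idh3b and Idh3g), the mitochondrial NADP-dependent isocitrate dehydrogenase (Idh2) and the cytosolic aspartate aminotransferase (Got1) were lower in knockout MII oocytes. Pyruvate carboxylase (Pcx) was higher. The median log2 fold change of the 46 genes was -0.24, against -0.01 over all tested genes. In 22 genes both knockout MII libraries lay below both control MII libraries and in 9 both lay above, where such non-overlap held for 46.4% of all tested genes (24.7% below and 21.7% above).

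Within upper glycolysis, Aldoa was the member called. Aldoa (ENSMUSG00000030695, mm10 chromosome 7, 126795234 to 126800751, minus strand) splits fructose bisphosphate into triose phosphates. It had 7.45 and 1.66 CPM in knockout MII against 58.9 and 66.2 CPM in control MII. Both knockout MII libraries lay far below both control MII libraries, with a log2 fold change of -3.77 ± 0.66 (adjusted p = 0.0121). A shorter gene entry of the same symbol held 0 reads in all libraries. At GV its levels overlapped, with 725 and 446 CPM in knockout GV and 714 and 291 CPM in control GV.

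Next in the pathway, Pcx (ENSMUSG00000024892, chromosome 19, 4510472 to 4621752, plus strand) carboxylates pyruvate to oxaloacetate and so refills the cycle. Pcx had 93 and 11 reads in knockout MII against 2 and 0 reads in control MII. Summed over libraries and set to depth, the ratio was 48.7 (95% counting interval 13.2 to 408). That interval covers counting error only and leaves out the spread between libraries. The fitted log2 fold change was 5.29 ± 1.24 (adjusted p = 0.0378). Both knockout MII libraries were higher than both control MII libraries, but all 4 were low beside the GV stage, where Pcx had 172 and 367 reads in knockout GV and 166 and 339 reads in control GV. The call was made between 104 reads in knockout MII and 2 reads in control MII.

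In the tricarboxylic acid cycle 4 of 13 tested genes were lower in knockout MII and none was higher, where 3.44% of all tested genes were lower and 1.7% higher. With 1 library left out Idh3b was called in 8 of 8 fits, Idh3g in 2, and Aco1 and Idh2 in 1 each. Idh3b (chromosome 2, 130279309 to 130284547, minus strand), a regulatory subunit of the mitochondrial enzyme that oxidises isocitrate with NAD, had 0 reads in both knockout MII libraries against 158 and 33 reads in control MII. Set against a floor of 3 counts per library, its level was at least 35.4-fold lower (adjusted p = 0.00842). Both GV groups held Idh3b at like levels, with 226 and 293 reads in knockout GV and 306 and 284 reads in control GV.

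Idh3g (chromosome X, 73778963 to 73786897, minus strand), the other regulatory subunit, had 0.387 and 0.264 CPM in knockout MII against 1.08 and 6.77 CPM in control MII. The groups did not overlap and the log2 fold change was -3.56 ± 0.84 (adjusted p = 0.0391), although the control MII libraries themselves were far apart. The catalytic subunit Idh3a stood at 91.3 and 115 CPM in knockout MII and 94.4 and 112 CPM in control MII, which overlapped.

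Idh2 (chromosome 7, 80094846 to 80115392, minus strand), which makes NADPH in mitochondria, had 0 reads in both knockout MII libraries against 23 and 46 in control MII, at least 11.9-fold lower (adjusted p = 0.0392). It was low in every group. Aco1 (chromosome 4, 40143081 to 40198338, plus strand), a cytosolic aconitase that also binds iron-responsive RNA elements, had 0.804 and 1.17 CPM in knockout MII against 2.38 and 4.06 CPM in control MII. Its log2 fold change was -1.71 ± 0.43 (adjusted p = 0.0489), the value nearest to the threshold among the calls, and the groups did not overlap. Aco1 lies 93.5 Mb from Arid1a on the same chromosome, and Eno1, a gene of the list that was not called, lies 16.5 Mb from Arid1a. The entry enzyme of the cycle, Cs, had 334 and 426 CPM in knockout MII and 452 and 390 CPM in control MII, which overlapped (log2 fold change -0.15 ± 0.30).

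The smallest adjusted p of the list belonged to Got1 (ENSMUSG00000025190, chromosome 19, 43499752 to 43524605, minus strand), the cytosolic aminotransferase that returns aspartate to oxaloacetate in the malate-aspartate shuttle. Got1 had 8.49 and 5.66 CPM in knockout MII against 51.0 and 50.4 CPM in control MII. The libraries of each group were close to each other and the groups were far apart, with a log2 fold change of -2.84 ± 0.36 (adjusted p = 0.00306). At GV the order was the opposite, with 57.2 and 61.2 CPM in knockout GV against 26.0 and 40.5 CPM in control GV, a log2 fold change of 0.83 ± 0.34 that did not pass the test (adjusted p = 0.381). Both knockout MII libraries held less Got1 than any of the other 6 libraries.

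**Figure D2:**
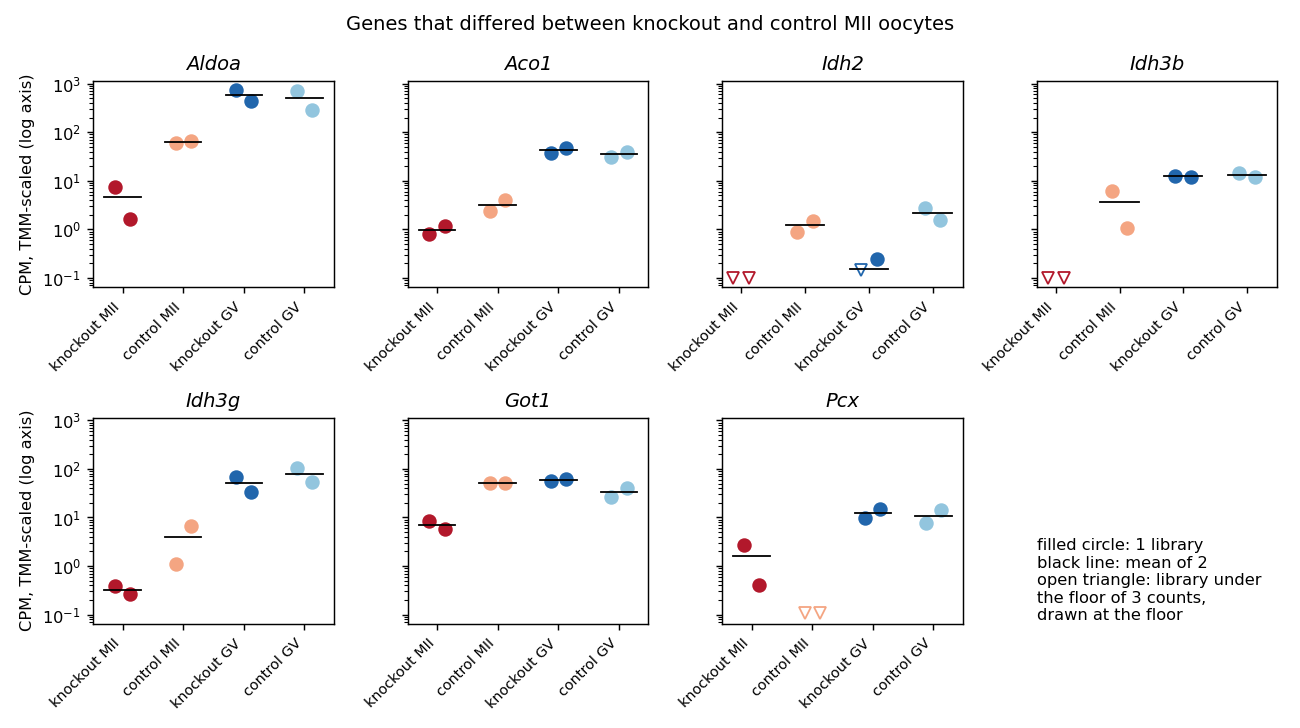
CPM (log axis) of the 7 genes that differed between knockout and control MII oocytes, in each of the 8 libraries (filled circles) with the mean of each group (black lines). Open triangles mark libraries below 3 counts, drawn at the floor, as in knockout MII for Idh2 and Idh3b and in control MII for Pcx, and Got1 is low in knockout MII alone.

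Got1 and Pcx lie on the same chromosome, moved in opposite directions at MII and are the 2 called genes whose 150 bases before the RefSeq start hold no annotated exon of any gene. Those promoter windows are printed for them, from the RefSeq annotation of GRCm38.p6, 5′ to 3′ on the strand of the gene. Capitals mark each CCAAT box, searched as CCAAT on both strands, so that a match on the other strand reads ATTGG. The Got1 window is chr19:43524606-43524755 on the minus strand and the Pcx window, at the more upstream of 2 annotated starts, is chr19:4510322-4510471 on the plus strand.
Got1 promoter: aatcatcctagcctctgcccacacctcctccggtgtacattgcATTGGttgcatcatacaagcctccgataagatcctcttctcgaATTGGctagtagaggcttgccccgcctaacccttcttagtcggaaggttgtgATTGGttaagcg
Pcx promoter: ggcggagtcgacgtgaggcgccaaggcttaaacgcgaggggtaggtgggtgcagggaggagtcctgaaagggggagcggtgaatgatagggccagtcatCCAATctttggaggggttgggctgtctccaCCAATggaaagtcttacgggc
The Got1 window holds 3 matches, all on the strand opposite to the gene, and the Pcx window holds 2, both on the strand of the gene. Of 27025 mouse promoter windows of this length, 25.3% hold at least 1 match, 6.41% at least 2 and 1.32% at least 3. The GC box, searched as GGGCGG on both strands, was in neither window and is in 29.0% of all windows. Nor did either window hold the E-box CACGTG, which 4.3% of all windows hold on 1 strand or the other. The TATA box, searched as TATAAA on both strands, was likewise in neither, with 8.1% over all windows. GC content was 50.7% for Got1 and 60.0% for Pcx, against a median of 54.0% over all windows. A match is a run of letters and not a measured site.

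Eno1 and Gpi1 lay just outside the threshold at MII. They are listed with other genes that were not called there, after their values were seen. Eno1, the enolase of most tissues, had 7.89 and 2.19 CPM in knockout MII against 22.1 and 19.1 CPM in control MII (adjusted p = 0.0552). Gpi1, the isomerase that follows hexokinase, had 5.48 and 2.23 CPM in knockout MII against 10.2 and 13.0 CPM in control MII (adjusted p = 0.059). In both genes the knockout MII libraries lay below both control MII libraries. Hk1 and Aldoc had 0 reads in knockout MII, while control MII held 24 and 22 reads of Hk1 and 18 and 55 reads of Aldoc. Ldha had 136 and 0 reads in knockout MII against 1218 and 985 reads in control MII (adjusted p = 0.119). Pkm, the last enzyme of glycolysis, stood at 26.3 and 32.1 CPM in knockout MII and 50.3 and 63.1 CPM in control MII (log2 fold change -0.96 ± 0.30, adjusted p = 0.0973). On the other side, Ldhb had 3152 and 1676 CPM in knockout MII against 1191 and 939 CPM in control MII (log2 fold change 1.18 ± 0.38, adjusted p = 0.107). Counted together, 8 of the 9 upper glycolytic genes had a fold change below 0 at MII and 7 of them did not overlap, all with knockout MII lower, where 24.7% of all tested genes lay below without overlap.

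The shuttle genes did not share a direction at MII. The mitochondrial aminotransferase Got2 stood at 16.8 and 11.6 CPM in knockout MII and 23.6 and 25.5 CPM in control MII, and Mdh1 at 141 and 147 CPM in knockout MII and 188 and 155 CPM in control MII. The aspartate-glutamate carriers lay the other way. Slc25a12 had 20.3 and 16.5 CPM in knockout MII against 8.23 and 6.97 CPM in control MII, and Slc25a13 had 28.4 and 33.6 CPM in knockout MII against 13.5 and 17.1 CPM in control MII. Neither carrier passed the test (adjusted p = 0.162 for Slc25a12 and 0.139 for Slc25a13), though neither overlapped. For Mdh1 the log2 fold change was -0.25 ± 0.24 (adjusted p = 0.608).

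Markers of cells that can adhere to oocytes were read in the same comparison. The 20 granulosa and cumulus markers summed to 511 and 400 CPM of all gene reads in knockout MII and 460 and 542 CPM in control MII, with 7 and 10 of them at 0 in knockout MII and 6 and 4 at 0 in control MII. The sums overlapped, but most of each sum was Serpine2. It had 386 and 323 CPM in knockout MII and 298 and 358 CPM in control MII. The median log2 fold change of the 17 tested markers was -2.002. Of these, Hsd17b1 and Gja1 were called lower in knockout MII. Cyp19a1, Cyp11a1, Foxl2, Inha, Inhba, Ptx3 and Fst also lay below control MII without overlap, while Nr5a2, Has2 and Kitl lay above. The 14 blood and immune markers summed to 4.18 and 3.67 CPM in knockout MII and 14.5 and 61.8 CPM in control MII, and of 6 tested Cd52 and Ccl3, with 0 reads in knockout MII, were lower. The median log2 fold change of these 6 was -8.59, a fitted value that rests on genes at 0 reads in knockout MII. The 12 markers of stroma, surface epithelium and endothelium summed to 32.9 and 27.5 CPM in knockout MII and 56.0 and 44.5 CPM in control MII. None of 6 tested was called, and their median log2 fold change was -0.13. The part of such cells, and of the lower mitochondrial share of knockout MII libraries, in the 7 calls was not tested. Aldoa and Got1 were called with any 1 of the 8 libraries left out, whereas Pcx was called in 1 of the 8 such fits. The number of lower calls was 3 without knockout GV library 1, without control GV library 1 or without control GV library 2, and 2 (Aldoa and Got1) when the MII libraries were fitted alone.

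At GV no gene of the list was called between knockout and control by edgeR, where 0.989% of all tested genes were. At an unadjusted p below 0.05 there were 6 genes, 3 higher and 3 lower, where 10.8% of all tested genes had such a p (6.63% higher and 4.21% lower), and DESeq2 called 1, Mpc1. Fitted on the GV libraries alone, edgeR called Dld (adjusted p = 0.0405), Idh2 (adjusted p = 0.032) and Mpc1 (adjusted p = 0.018). Over all genes that fit called 345 higher and 357 lower of 13992, and DESeq2 called 304 higher and 222 lower of 13458. The median log2 fold change was -0.06, against -0.00 over all genes. Mpc1, a subunit of the mitochondrial pyruvate carrier, had 11.2 and 8.84 CPM in knockout GV against 2.51 and 2.72 CPM in control GV. These groups did not overlap, and the log2 fold change was 1.93 ± 0.49 (adjusted p = 0.122). Because 23.1% of its exon bases overlap exons of a gene on the opposite strand and it is not stated whether the counting used strand, reads of the 2 genes cannot be told apart there. Dld, the dehydrogenase subunit shared by the pyruvate and oxoglutarate complexes, had 89.1 and 79.0 CPM in knockout GV against 39.5 and 38.4 CPM in control GV (log2 fold change 1.11 ± 0.31, adjusted p = 0.165). On the lower side, Pfkl, the liver-type phosphofructokinase, had 6.17 and 10.7 CPM in knockout GV against 16.4 and 21.3 CPM in control GV (log2 fold change -1.16 ± 0.42, adjusted p = 0.306). Idh2 had 1 and 6 reads in knockout GV against 58 and 37 reads in control GV (log2 fold change -3.72 ± 1.33, adjusted p = 0.309). Pdhb, a subunit of pyruvate dehydrogenase, had 18.5 and 23.3 CPM in knockout GV against 29.5 and 46.3 CPM in control GV (log2 fold change -0.86 ± 0.32, adjusted p = 0.333). None of these 5 genes overlapped between the groups, where 46.4% of all tested genes did not. In all, 5 genes of the list lay above and 10 below control without overlap, where 22.6% and 23.8% of all tested genes did.

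The genes with the highest level in their role gave small fold changes at GV. Aldoa differed by 0.22 ± 0.58, Cs by 0.18 ± 0.30 and Pdk3 by 0.25 ± 0.30 on the log2 scale, and with scaling by library totals alone each was just below 0. Pkm differed by -0.20 ± 0.29, Ldhb by -0.27 ± 0.38 and Mdh1 by -0.25 ± 0.25. Every one of these had an adjusted p of at least 0.859. A copy of Eno1 that is named Eno1b had 6.63 and 8.92 CPM in knockout GV against 0.371 and 1.05 CPM in control GV (adjusted p = 0.227), while Eno1 itself had 25.7 and 27.3 CPM in knockout GV against 65.4 and 43.6 CPM in control GV (adjusted p = 0.52). Reads may be split between such copies, so values of Eno1 are uncertain.

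**Figure D3:**
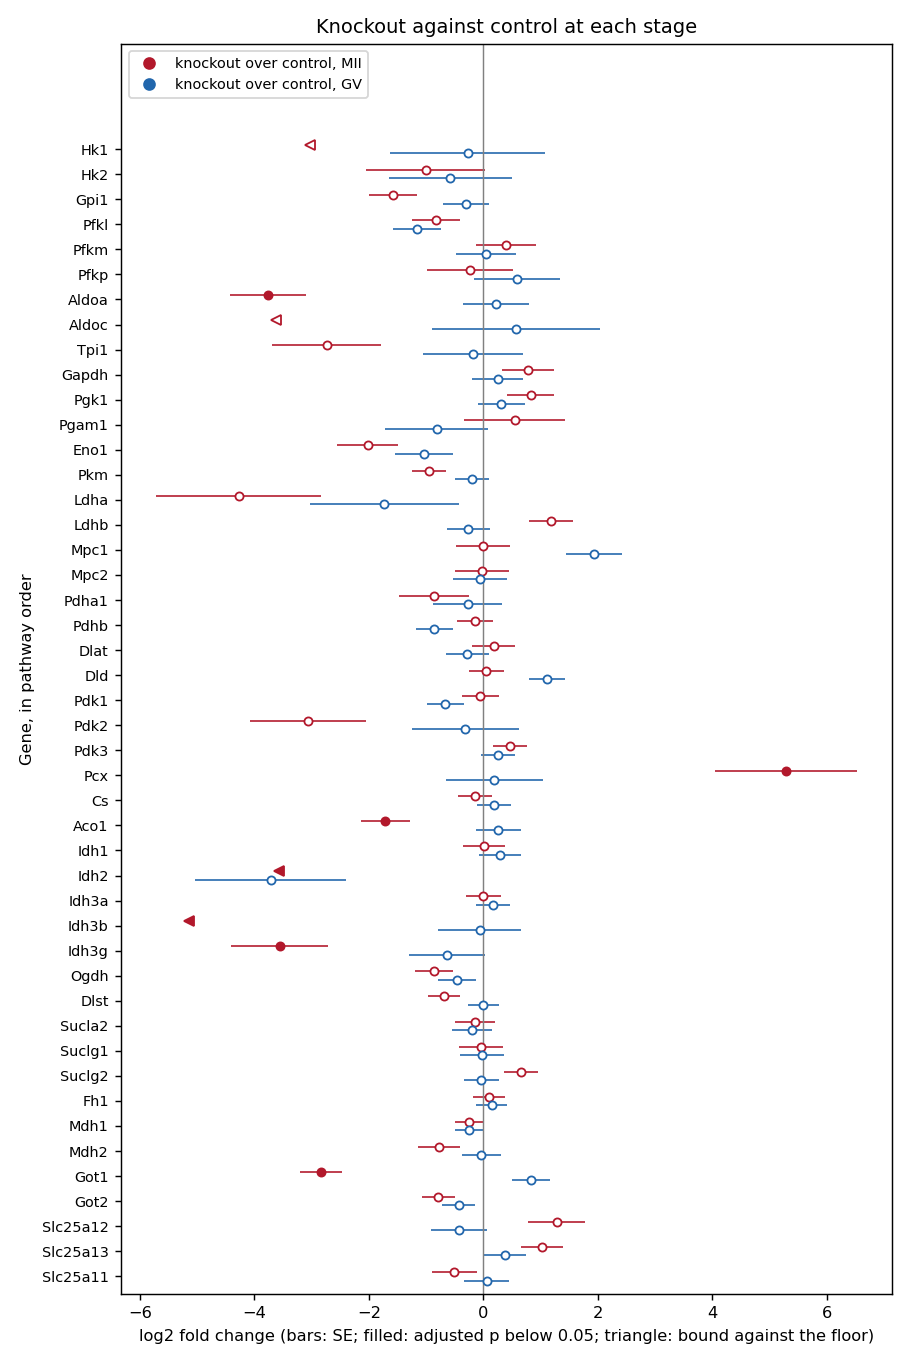
Log2 fold change of knockout over control (x axis) for the 46 tested genes (y axis, pathway order) at MII and GV, with bars for the SE and filled symbols for an adjusted p below 0.05. Triangles give the bound for genes with 0 reads in knockout MII, and filled symbols appear at MII only, with Pcx on the right and Aldoa, Aco1, Idh2, Idh3b, Idh3g and Got1 on the left.

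Whether the effect of the knockout differed between the stages was tested directly. Got1 passed, with a log2 fold change at MII minus that at GV of -3.67 ± 0.49 (adjusted p = 0.0458), and it was the only gene of the list to do so where 0.0835% of all tested genes, 13 in number, passed. The call was lost when library sizes were scaled by DESeq2 size factors or by totals, and in all single omissions but that of knockout MII library 1. For Aldoa the difference was -3.99 ± 0.86 (adjusted p = 0.12) and for Pcx 5.11 ± 1.51 (adjusted p = 0.243). The other called genes had adjusted p of 0.0758 (Idh3b), 0.239 (Aco1), 0.341 (Idh3g) and 0.47 (Idh2). That these were called at MII and not at GV is therefore not shown to be a difference between the stages.

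The second question is what happened to the genes between GV and MII. In knockout oocytes 29 of 46 differed, 9 higher and 20 lower at MII, where 49% of all tested genes differed (19.9% higher and 29.1% lower). In control oocytes 23 of 46 differed, 7 higher and 16 lower, where 49.1% of all genes did (21.2% higher and 27.9% lower). The median log2 fold change was -1.15 in knockout oocytes, or -0.998 with the 4 genes at 0 set to their bounds, and -0.54 in control oocytes, against -0.33 and -0.20 over all tested genes. Each comparison had its own libraries. Of the lower genes, 14 were called in both genotypes, which is 70% of those in knockout and 87.5% of those in control oocytes. Of the higher genes 6 were shared, 66.7% of those in knockout and 85.7% of those in control oocytes. How many of all tested genes were called in both genotypes was not counted, so this overlap is not shown to be particular to the list. The change in the mitochondrial share of reads accompanied the change of stage in both genotypes, and its part was not tested.

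Of the 9 upper and 5 lower glycolytic genes tested, 5 and 2 were lower at MII in knockout oocytes and 3 and 2 in control oocytes, where 29.1% and 27.9% of all tested genes were lower. None of them was called higher. Gpi1, Aldoa, Eno1 and Pkm were lower at MII in both genotypes. Aldoa fell by 6.99 ± 0.76 on the log2 scale in knockout oocytes (adjusted p = 6.3e-05). In control oocytes it had 58.9 and 66.2 CPM at MII against 714 and 291 CPM at GV, which also passed (adjusted p = 0.00297). This left 0.777% of the GV level in knockout MII and 12.5% in control MII. Pkm fell by 4.55 ± 0.34 in knockout oocytes (adjusted p = 8.72e-06) and by 3.79 ± 0.33 in control oocytes (adjusted p = 2.48e-05). Gpi1 had 5.48 and 2.23 CPM in knockout MII against 126 and 80.9 CPM in knockout GV. In control oocytes Gpi1 fell by 3.46 ± 0.44 (adjusted p = 0.000166). Hk1 had 0 reads in both knockout MII libraries against 3 and 10 in knockout GV (adjusted p = 0.0289), and Aldoc had 0 against 17 and 3 (adjusted p = 0.0262). These calls rest on few reads, and with 1 library left out they held in 1 of 8 fits for Hk1 and 3 of 8 for Aldoc. In control oocytes neither passed the test, and the reads of Hk1 were 24 and 22 in control MII against 10 and 6 in control GV. Hk2 lay above GV without overlap in both genotypes, with 6.85 and 4.72 CPM in knockout MII against 2.66 and 0.330 CPM in knockout GV, and 13.0 and 10.4 CPM in control MII against 0.371 and 4.02 CPM in control GV, and did not pass (adjusted p = 0.155 in knockout and 0.0896 in control oocytes). Gapdh, Pgk1 and Pgam1, consecutive enzymes of lower glycolysis, were called in neither genotype.

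Of the 4 genes of lactate and pyruvate entry, 1 was called between the stages in knockout oocytes and 3 in control oocytes. Over all tested genes 49% and 49.1% were called. The test of the difference between the genotypes passed for none of the 4. Ldhb fell by 2.20 ± 0.39 on the log2 scale between GV and MII in control oocytes (adjusted p = 0.0012), with 1191 and 939 CPM in control MII against 4241 and 5527 CPM in control GV. In knockout oocytes it had 3152 and 1676 CPM at MII against 4751 and 3361 CPM at GV, a log2 fold change of -0.75 ± 0.38 (adjusted p = 0.124). It was called there by DESeq2 (adjusted p = 0.0477), with no filter on low counts (adjusted p = 0.0435) and without knockout MII library 1 (adjusted p = 0.0328). All 4 MII libraries lay below the GV libraries of their genotype. The test of the difference between the genotypes did not pass for Ldhb (adjusted p = 0.346). Mpc2, the partner of Mpc1, was lower at MII in both genotypes, at 4.14 and 4.83 CPM in knockout MII against 27.8 and 23.7 CPM in knockout GV, and at 6.54 and 2.58 CPM in control MII against 29.8 and 23.8 CPM in control GV. Mpc1 was higher at MII in control oocytes, by 1.83 ± 0.49 (adjusted p = 0.0111), a call lost without control GV library 1 (adjusted p = 0.0824) or 2 (adjusted p = 0.0638). It stood at 8.37 and 10.2 CPM in knockout MII and 11.2 and 8.84 CPM in knockout GV.

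At the pyruvate dehydrogenase complex, the kinases Pdk1 and Pdk3 were called higher at MII in both genotypes, and Pdk2 was called in neither. The catalytic subunits did not share a direction between the stages. Pdk1, a kinase that inactivates the complex, had 54.6 and 86.2 CPM in knockout MII against 11.7 and 9.42 CPM in knockout GV (log2 fold change 2.74 ± 0.35, adjusted p = 0.00015). It rose by 2.13 ± 0.34 in control oocytes (adjusted p = 0.000582), with 73.7 and 72.3 CPM in control MII against 14.4 and 18.9 CPM in control GV. Pdk3, another kinase of the complex, rose by 1.18 ± 0.30 in knockout oocytes (adjusted p = 0.00822) and by 0.96 ± 0.30 in control oocytes (adjusted p = 0.0221), a call lost with scaling by library totals and without control MII library a, control MII library b or control GV library 1 (adjusted p up to 0.153). In knockout oocytes the call was lost without knockout GV library 1 (adjusted p = 0.0917). The kinase Pdk2 had 0.417 and 0.868 CPM in knockout MII against 3.23 and 1.69 CPM in knockout GV, or 26.1% of the GV level. In control oocytes Pdk2 had 9.35 and 1.49 CPM at MII against 3.81 and 2.30 CPM at GV. The mean there was 177% of the GV level, which rests on control MII library a. Pdha1, the E1 alpha subunit that these kinases phosphorylate, was lower at MII in both genotypes, with 1.46 and 2.72 CPM in knockout MII against 16.2 and 12.1 CPM in knockout GV. In control oocytes Pdha1 had 1.96 and 5.62 CPM at MII against 12.6 and 21.6 CPM at GV. Pdhb, the E1 beta subunit, was higher at MII in knockout oocytes (log2 fold change 1.51 ± 0.33, adjusted p = 0.00357), and in control oocytes it stood at 57.7 and 74.2 CPM at MII against 29.5 and 46.3 CPM at GV, which did not pass (adjusted p = 0.0613). Pcx fell by 8.06 ± 1.29 in control oocytes (adjusted p = 0.00062), a fitted value that rests on 2 reads at MII, and had 12.8% of the GV level left in knockout MII.

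Within the cycle, Idh1, Idh3a and Suclg2 were higher at MII in both genotypes. Suclg2, the GDP-forming beta subunit of succinyl-CoA ligase, rose by 2.76 ± 0.32 on the log2 scale in knockout oocytes (adjusted p = 9.15e-05) and by 2.07 ± 0.31 in control oocytes (adjusted p = 0.000443). Idh1, the cytosolic NADP-dependent isocitrate dehydrogenase, rose by 1.57 ± 0.38 in knockout oocytes (adjusted p = 0.00616) and by 1.84 ± 0.38 in control oocytes (adjusted p = 0.00267). Idh3a rose by 1.40 ± 0.30 in knockout oocytes (adjusted p = 0.00368) and by 1.56 ± 0.31 in control oocytes (adjusted p = 0.00202). On the lower side in both genotypes were Aco1, Idh3g, Dlst and Fh1. Idh3g fell by 7.27 ± 0.93 in knockout oocytes (adjusted p = 0.000159) and by 4.34 ± 0.77 in control oocytes (adjusted p = 0.00117). Dlst, the transferase subunit of the oxoglutarate dehydrogenase complex, had 9.14 and 6.53 CPM in knockout MII against 190 and 168 CPM in knockout GV, and fell by 3.82 ± 0.30 in control oocytes (adjusted p = 1.76e-05). Idh3b, at 0 in knockout MII, was at least 123-fold lower there than in knockout GV (adjusted p = 0.00021), while in control oocytes its log2 fold change was -1.87 ± 0.76 (adjusted p = 0.0669). Cs passed in neither genotype, with log2 fold changes of 0.14 ± 0.30 in knockout and 0.47 ± 0.30 in control oocytes.

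Among the shuttle genes, the cytosolic and mitochondrial malate dehydrogenases went opposite ways. Mdh1 rose by 1.19 ± 0.25 on the log2 scale in knockout oocytes (adjusted p = 0.00283) and by 1.19 ± 0.25 in control oocytes (adjusted p = 0.0029). Mdh2 had 1.79 and 2.91 CPM in knockout MII against 170 and 111 CPM in knockout GV, and 4.77 and 3.27 CPM in control MII against 126 and 163 CPM in control GV. It fell by 5.91 ± 0.43 in knockout oocytes (adjusted p = 7.7e-06) and by 5.17 ± 0.41 in control oocytes (adjusted p = 1.84e-05), and every MII library lay far below every GV library. Got2 was lower at MII in both genotypes, with 17.6% of the GV level left in knockout MII and 22.5% in control MII. Got1 had 11.95% of the GV level in knockout MII, where it was called lower, and 152% in control MII, where it was not called. Slc25a12 rose by 1.78 ± 0.50 in knockout oocytes (adjusted p = 0.0137). Slc25a13 was also called higher in knockout oocytes, with 258% of its GV level at MII. In control oocytes Slc25a12 stood at 105% and Slc25a13 at 165% of the GV level, and neither passed.

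**Figure D4:**
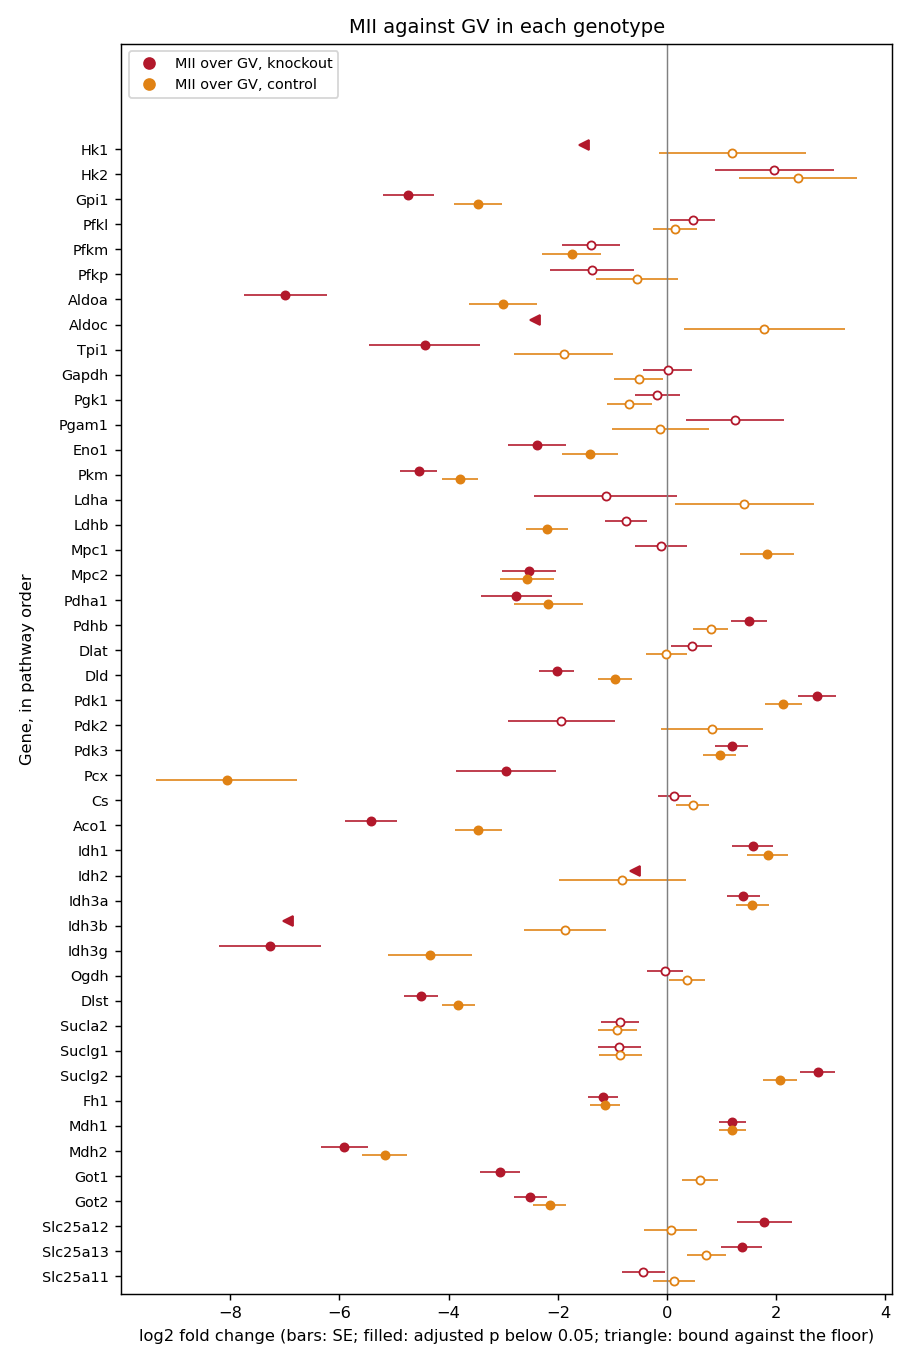
Log2 fold change of MII over GV (x axis) for the 46 tested genes (y axis, pathway order) in knockout and in control oocytes, with bars for the SE, filled symbols for an adjusted p below 0.05 and triangles for bounds where knockout MII held 0 reads. Mdh2, Dlst, Pkm and Gpi1 lie far to the left and Suclg2 and Pdk1 to the right in both genotypes, while Got1 lies to the left in knockout oocytes only.

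For the 14 genes that were lower in both genotypes, the share of the GV level left at MII was smaller in knockout than in control oocytes in 12, the exceptions being Pcx and Mpc2. The 2 shares come from different libraries, yet the difference between the genotypes passed the test in none of the 14. How many of all genes fell further in knockout oocytes was not counted. Over all tested genes the median log2 difference between the genotypes was also below 0, at -0.14, against -0.38 for the 46 genes of the list. Mdh2 retained 1.67% in knockout MII and 2.78% in control MII, Dlst 4.39% and 7.07%, and Fh1, the fumarase, 44.3% and 45.7%. A further 14 genes of the list were called in neither genotype, which was likewise not counted over all genes.

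Changes of opposite direction within a reaction altered the shares of its transcripts. Shares of CPM per kb within a library do not depend on the scaling between libraries and are given as a description, with no test. Mdh1 held 99.1% and 98.6% of the malate dehydrogenase transcripts in knockout MII, 98.2% and 98.5% in control MII, 33.8% and 44.2% in knockout GV and 44.5% and 39.6% in control GV. Suclg2 held 80.7% and 79.3% of the succinyl-CoA ligase beta transcripts in knockout MII, 70.6% and 68.7% in control MII, 21.1% and 27.0% in knockout GV and 28.7% and 18.6% in control GV. In both reactions the larger share passed to the other gene between the stages in each genotype. Idh3a made up 99.2% and 99.6% of the transcripts of the NAD-dependent isocitrate dehydrogenase in knockout MII and 89.5% and 88.6% in control MII, against 17.1% and 36.8% in knockout GV and 12.7% and 24.1% in control GV. At GV Idh3g held 72.3% and 49.2% of them in knockout oocytes and 79.0% and 64.5% in control oocytes. Pdhb made up 97.4% and 95.7% of the pyruvate dehydrogenase E1 transcripts in knockout MII and 96.6% and 92.7% in control MII, against 52.4% and 65.1% in knockout GV and 69.3% and 67.5% in control GV. It thus held the larger share at both stages. The shares of Idh3a, Idh3g and Pdhb are between subunits of the same enzyme.

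In the aminotransferases the order of the genotypes turned round between the stages. Got1 held 49.0% and 48.1% of the aspartate aminotransferase transcripts in knockout MII against 80.4% and 79.0% in control MII. At GV it held 56.8% and 59.6% in knockout oocytes against 29.0% and 44.3% in control oocytes. The groups did not overlap at either stage. Nor did they for Pfkl and Pfkm among the phosphofructokinases, Pdk1 and Pdk3 among the kinases of pyruvate dehydrogenase and Idh1 among the NADP-dependent isocitrate dehydrogenases. Each of these kept its order at both stages. In the mitochondrial pyruvate carrier, Mpc1 held 87.7% and 88.2% in knockout MII and 82.9% and 93.0% in control MII. Its share at GV was 58.6% and 56.8% in knockout oocytes against 22.9% and 28.8% in control oocytes. The genotypes overlapped at MII and were apart at GV. Of the aspartate-glutamate carriers, Slc25a13 was the larger in all 8 libraries, from 70.3% to 85.6%.

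**Figure D5:**
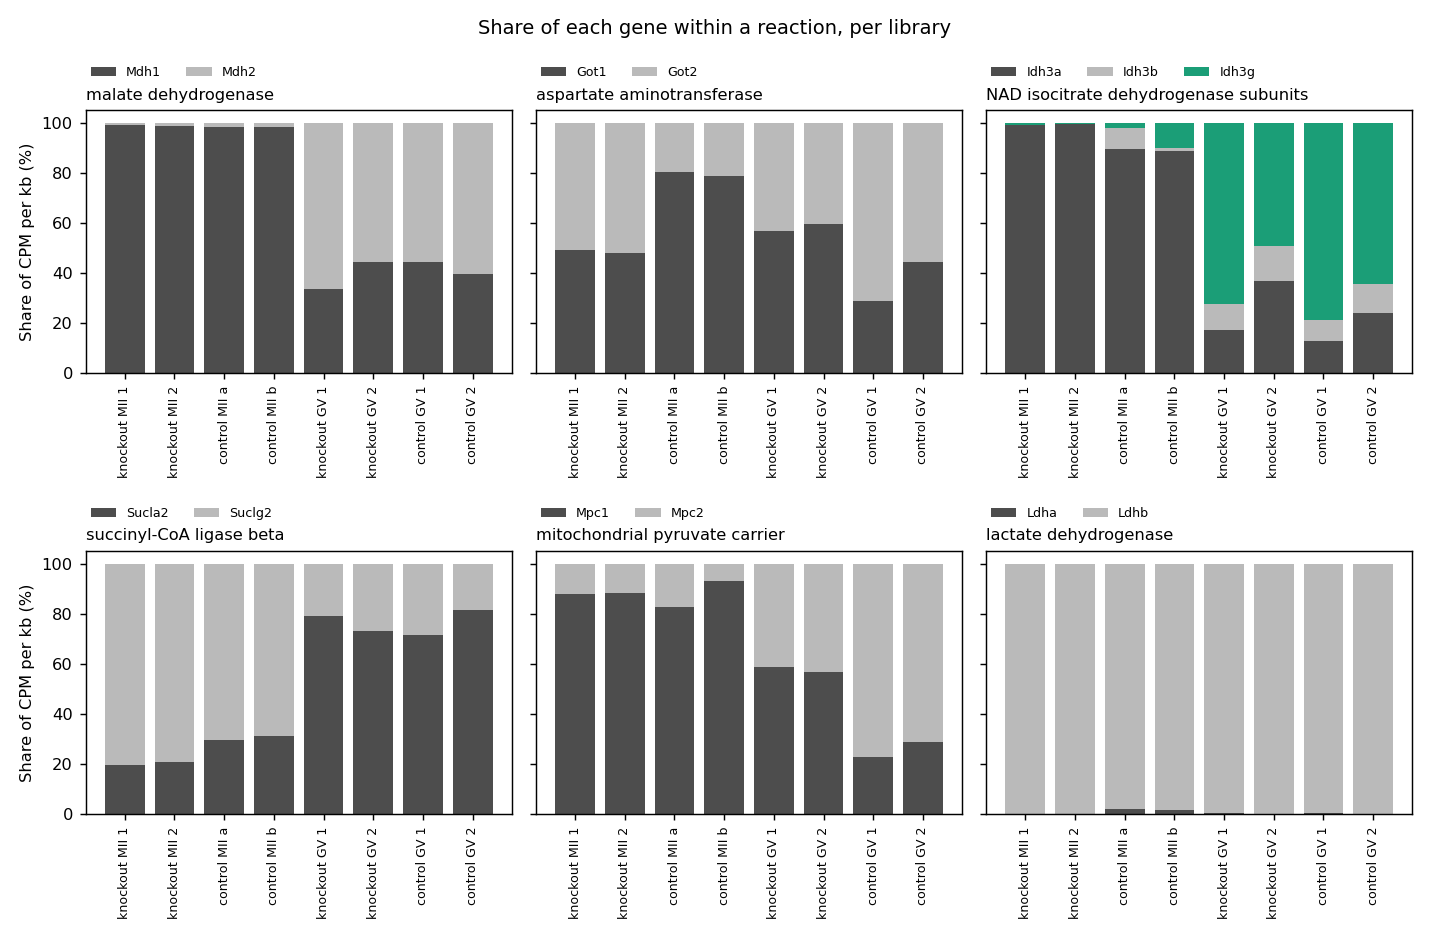
Share of each gene in the CPM per kb of its reaction (y axis, percent) in each of the 8 libraries (x axis) for 6 reactions. Mdh1 fills at least 98.2% of the malate dehydrogenase bars at MII and at most 44.5% at GV, Got1 fills 49.0% and 48.1% in knockout MII against 80.4% and 79.0% in control MII, and Ldhb fills at least 98.2% of lactate dehydrogenase in all libraries.

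The same tests were run on 62 related genes outside the list, namely other isozymes and subunits, regulators of flux, succinate dehydrogenase, glucose and monocarboxylate carriers, malic enzymes, the glycerol phosphate shuttle and the pentose phosphate pathway, of which 46 were tested. By edgeR none was called between knockout and control at MII or at GV, with 9 at MII and 4 at GV at an unadjusted p below 0.05, where 22.2% of all tested genes had such a p at MII. DESeq2 called 4 at MII and 0 at GV, where over all genes it called 643 higher and 1108 lower of 15270 at MII. Between stages in knockout oocytes 8 were higher and 20 lower at MII, and in control oocytes 7 were higher and 17 lower, where 19.9% of all tested genes were higher and 29.1% lower in knockout oocytes, and 21.2% higher and 27.9% lower in control oocytes. Among them was Sdhd, a membrane anchor of succinate dehydrogenase, which had 0.685 and 0.642 CPM in knockout MII against 191 and 135 CPM in knockout GV, and 1.04 and 2.08 CPM in control MII against 139 and 104 CPM in control GV. It fell by 7.93 ± 0.48 on the log2 scale in knockout oocytes (adjusted p = 5.33e-06) and by 6.27 ± 0.44 in control oocytes (adjusted p = 1.33e-05). Fbp2, a fructose bisphosphatase, fell by 9.19 ± 1.34 in control oocytes (adjusted p = 0.000358), a fitted value that rests on 2 reads in control MII. Ldhc, the germ-cell lactate dehydrogenase, fell by 5.09 ± 1.56 in control oocytes (adjusted p = 0.0214), with 0 and 44 reads in control MII. The call was lost with DESeq2 (adjusted p = 0.0902) and without control GV library 1 (adjusted p = 0.0564) or 2 (adjusted p = 0.0793). On the higher side were Pfkfb2, which makes an activator of phosphofructokinase, and Gpd2, the mitochondrial arm of the glycerol phosphate shuttle. Pfkfb2 rose by 2.88 ± 0.78 in knockout oocytes (adjusted p = 0.0115) and by 3.05 ± 0.79 in control oocytes (adjusted p = 0.00941). Gpd2 rose by 2.95 ± 0.63 in knockout oocytes (adjusted p = 0.00315) and by 2.83 ± 0.62 in control oocytes (adjusted p = 0.00371).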

How the data were processed

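The deposited values were counts of reads per Ensembl gene in 1 table of the 8 libraries, with 54838 gene entries. Per the submitters' processing notes the authors used Bowtie2, HTSeq and edgeR with the genome build mm10. Not given in the sources used here are versions, annotation release, strand setting and RNA selection. HTSeq's 5 summary entries (22% to 35.13% of reads) were left out. Per the file headers, 2 columns share the name of the second control MII library. They entered the control MII group as a and b, with no replicate number. Replicate columns differed by a chi-square per degree of freedom of 48.5 to 106, so none was a duplicate.

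The model was edgeR 4.0.16 under R 4.3.3 (filterByExpr, 15572 genes, scaling by trimmed mean of M values, 1 term per group over 8 libraries, 4 residual and 6.30 prior degrees of freedom). The two-sided quasi-likelihood F-test was run for 5 contrasts with Benjamini-Hochberg adjustment over all tested genes and a threshold of 0.05. The SE is the log2 fold change divided by the square root of F. Levels between genes are CPM per kilobase of merged GENCODE release 21 exons. Where a group held 0 reads, the fold is a lower limit that sets each library to 3 counts and covers counting error only. The script was tested on simulated counts.

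The 47 genes, the 62 related genes, the marker lists and the tests were chosen with earlier results of these data known. Fold changes with SE and adjusted p are printed for genes called in a knockout contrast, the 5 with the smallest p where fewer were called, the 6 largest rises and falls in each maturation contrast, the highest per kilobase in each role, and the 3 largest related genes each way. A related gene that this rule names is not reported here. Other genes given with an adjusted p were chosen after their values were seen. Alternatives were DESeq2 1.42.0 and its size factors, library totals, no filter, a mean of at least 5 CPM, the 2 groups alone, a replicate block at GV and leaving out each library.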

Additional observations from a re-analysis of the deposited data

Results flagged for a closer look

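Got1, the cytosolic aspartate aminotransferase, stood out because the effect of the knockout differed between the stages by the test of that difference. The log2 fold change of knockout over control at MII minus that at GV was -3.67 (edgeR adjusted p = 0.0458), from levels of 8.49 and 5.66 CPM for knockout MII against 51.0 and 50.4 CPM for control MII. At GV the levels were 57.2 and 61.2 CPM for knockout against 26.0 and 40.5 CPM for control. Knockout lay below control in both libraries at MII and above it in both libraries at GV. The call was lost with DESeq2 size factors (adjusted p = 0.0631), with library totals (adjusted p = 0.0846) and in 7 of 8 fits with 1 library left out, where the adjusted p reached 0.236. It held without knockout MII library 1. Of 17 tested granulosa and cumulus markers 2 were called lower in knockout MII than in control MII. The median log2 fold change of the 17 was -2.002, and the part of such cells in the Got1 result was not tested.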

How the results depend on the processing

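Of the results for single genes, 76 values under up to 15 alternatives, 970 outcomes kept their direction and their side of the threshold, 72 were no longer called, 17 became called and 14, none called, changed sign. At MII the list gave 2 higher and 13 lower calls with no filter on low counts, 2 and 11 with DESeq2, and 0 and 2 from the MII libraries alone. Over all genes these settings gave 599 higher and 1230 lower of 25203, 643 and 1108 of 15270, and 166 and 226 of 12948. Leaving out each library gave 0 to 1 higher and 3 to 7 lower calls, the single higher call, Pcx, being lost without any library but knockout MII 2. The related genes gave 2 higher and 4 lower calls at MII with no filter, 1 lower at a mean of at least 5 CPM, 4 lower with DESeq2 and 0 to 1 each way with libraries left out. At GV the list gave 1 higher call with DESeq2 and 2 higher and 1 lower from the GV libraries alone, and the related genes gave 1 higher with no filter and 1 higher and 3 lower from the GV libraries alone. For the difference between stages, the lower calls of the list were 0 with DESeq2 size factors or library totals, 6 (and 1 higher) with no filter, 3 (and 1 higher) with DESeq2 and 0 to 3 with libraries left out, and the related genes gave 1 lower with no filter. With libraries left out, maturation in knockout oocytes gave 5 to 9 higher calls of the list and 5 to 8 of the related genes, fewest without knockout GV library 1. In control oocytes the related genes gave 3 to 9 higher and 11 to 21 lower calls, fewest without control GV library 1. Over all genes the difference between stages gave 125 higher and 373 lower calls of 25203 with no filter, and 104 and 239 of 13458 with DESeq2. The cause of these shifts was not tested.

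Scaling by library totals moved the median of all genes at GV to -0.27, and the median of the list to -0.36 at GV, -0.33 at MII, -0.68 and -0.97 for maturation in control and knockout oocytes and -0.14 for the difference between stages. With DESeq2 size factors the 2 maturation medians were -0.68 in control and -1.25 in knockout oocytes, with DESeq2 -0.68 and -1.27, and at a mean of at least 5 CPM -0.78 and -0.93, with -0.30 for the difference between stages. From the knockout libraries alone the median was -0.88. Leaving out libraries gave medians of -0.17 to -0.045 at GV, -0.40 to -0.21 at MII, -0.61 to -0.30 for control maturation, -1.19 to -1.01 for knockout maturation and -0.62 to -0.21 for the difference. Signs at GV turned with library totals for Aco1 (-0.0092), Aldoa (-0.058), Cs (-0.082), Pcx (-0.075) and Pdk3 (-0.0057). With libraries left out, log2 fold changes at GV ran from -0.28 to 1.01 for Aldoa, -0.11 to 0.56 for Cs, -0.19 to 0.069 for Idh3b, -0.19 to 0.69 for Pcx and -0.54 to 0.087 for Pkm. Cs ran from -0.26 to 0.028 for the knockout at MII and from -0.048 to 0.24 for knockout maturation.

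Replicate numbers pair the libraries at GV only, and the labels do not say what a number marks. Same-numbered GV libraries deviated from their group means with a correlation of 0.24 over 15572 genes. A fit of the GV libraries with the replicate block called 1522 genes, against 702 without it, with 3 higher and 5 lower in the list (Dld, Eno1, Got1, Idh2, Ldha, Mpc1, Pdhb and Pfkl) and 1 higher and 4 lower among the related genes. No paired analysis was possible at MII because the control columns share a name. Depth limits genes such as Idh2, Hk1 and Aldoc, for which a count of 0 still allows 3 reads per library.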
